A study of Mus musculus with 18 samples.

Results

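The 9 genes described here are *Gsk3a* and *Gsk3b*, *Akt1* and *Akt2*, *Pik3ca*, *Irs1* and *Irs2*, *Insr* and *Igf1r*. They were chosen by symbol and are 9 of the 24369 rows of the deposited table of gene levels. RNA was sequenced from E14 mouse embryonic stem cells (mESCs) of the genotype Rex1GFPd2-Cas9, in which a destabilised GFP is expressed from an allele of *Rex1* and Cas9 is expressed from *Rosa26* under the EF1alpha promoter. All 18 libraries carry both transgenes. A differentiation time course had 3 libraries before differentiation (day 0) and 3 on each of days 1, 2 and 3, from cells that were not sorted. A further 6 libraries came from sorted GFP+ cells, 2 each of wild-type, *Nprl2* KO and *Tsc2* KO mESCs kept on feeder cells in serum with LIF. *Nprl2* encodes a subunit of the Gator1 complex, and both Gator1 and *Tsc2* restrain the kinase complex mTORC1. The KO cells were clones with a critical exon deleted on both alleles, and how many clones each library stands for is not given in the sources used here.

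Insulin and the insulin-like growth factors bind the receptor tyrosine kinases Insr and Igf1r. The active receptors phosphorylate the adaptors Irs1 and Irs2, which recruit phosphoinositide 3-kinase (PI3K), and its catalytic subunit p110alpha is the product of *Pik3ca*. The lipid that PI3K makes brings Akt kinases to the membrane, where they are activated. Akt phosphorylates and inhibits Gsk3, Tsc2 and the FoxO transcription factors, and active mTORC1 feeds back on the pathway at the level of the Irs proteins. Gsk3 marks beta-catenin for destruction, and chemical inhibition of Gsk3 is used to hold mESCs in the naive state. These controls act mostly on proteins and their phosphorylation, and only RNA was measured here.

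Levels are given as TPM, which scale the reads of a transcript by its length and by the library total, so that they can be compared between genes. Fold changes are on the log2 scale and come from estimated counts summed per gene, which were tested with the quasi-likelihood test of edgeR, and p values were adjusted by Benjamini-Hochberg over all genes tested. A gene is called at an adjusted p below 0.05. All 9 genes passed the filter on low counts in both sets of libraries, with 14382 genes tested in the time course and 13725 in GFP+ cells. The labels do not say whether libraries of a group came from separate cultures, so p values measure the spread between these libraries, which may be technical.

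The total of estimated counts was between 8610357 and 15305054 per library, and the upper limit behind a count of 0 (3 counts) lay between 0.203 and 0.354 CPM, which covers counting error only. *Nprl2* was at 11.7 and 12.6 CPM in wild-type cells and at 5.95 and 6.49 CPM in *Nprl2* KO cells. *Tsc2* was at 152 and 155 CPM in wild-type cells and at 63.6 and 67.2 CPM in *Tsc2* KO cells. The remaining reads of each targeted gene can come from exons that were not deleted. The summed level of 6 mESC markers was between 4451 and 4714 CPM on day 0 and between 864 and 1061 CPM on day 3, whereas that of 4 formative markers was between 214 and 282 CPM on day 0 and between 2422 and 3017 CPM on day 3. Markers of feeder fibroblasts summed to between 15.6 and 47.3 CPM in the time course and to between 81.3 and 355 CPM in the GFP+ libraries. These markers did not move together in the time course. Of the 7 tested, 4 were called higher and 3 lower on day 3 than on day 0, where 35.0% and 35.9% of all genes were.

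In the time course *Gsk3a* had the highest level of the 9 genes on every day and *Irs1* the lowest. On day 0 the mean levels followed the order *Gsk3a*, *Akt2*, *Akt1*, *Gsk3b*, *Pik3ca*, *Igf1r*, *Irs2*, *Insr* and *Irs1*. The libraries of *Pik3ca* and *Igf1r* overlapped, as did those of *Igf1r* and *Irs2*, and all other neighbours in this order were apart. On day 3 the order was *Gsk3a*, *Akt1*, *Akt2*, *Irs2*, *Gsk3b*, *Igf1r*, *Pik3ca*, *Insr* and *Irs1*. Only *Irs2* and *Gsk3b* overlapped among the neighbours of that day. *Akt1* and *Akt2* had changed places, and *Irs2* had moved from the seventh to the fourth place.

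**Figure D1:**
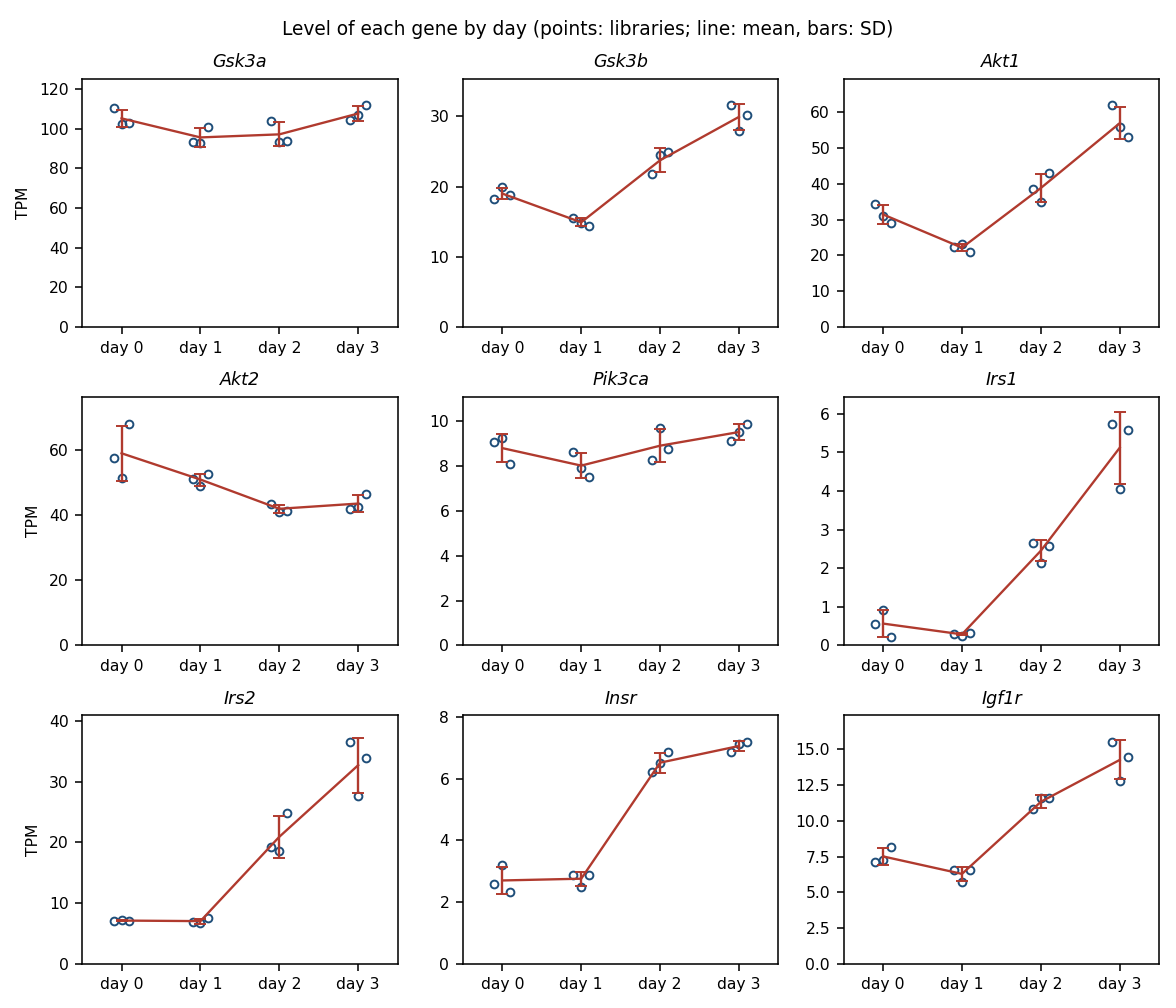
Level of each of the 9 genes (vertical axis, TPM, a separate scale for each gene starting at 0) on days 0, 1, 2 and 3 of differentiation (horizontal axis). Circles are the 3 libraries of a day, the line joins their means and the bars are ± SD. *Irs1*, *Irs2*, *Insr*, *Igf1r*, *Akt1* and *Gsk3b* sit higher on day 3 than on day 0, *Akt2* sits lower, and *Gsk3a* and *Pik3ca* overlap between these days.

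Both receptor genes were higher from day 2 on. *Insr* encodes the insulin receptor, and its level in the 3 libraries was 2.59, 3.19 and 2.32 TPM on day 0, 2.88, 2.50 and 2.88 TPM on day 1, 6.20, 6.50 and 6.85 TPM on day 2 and 6.86, 7.13 and 7.19 TPM on day 3. All libraries of days 2 and 3 lay above all libraries of days 0 and 1, which overlapped. From day 1 to day 2 *Insr* rose by 1.13 (SE 0.10) on the log2 scale, with an adjusted p of 1.91e-08 in edgeR's quasi-likelihood test. Between days 2 and 3 the difference was 0.07 (SE 0.09) and was not called.

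*Igf1r* encodes the receptor of the insulin-like growth factors. It was at 7.12, 7.23 and 8.18 TPM on day 0, at 6.56, 5.73 and 6.56 TPM on day 1, at 10.8, 11.6 and 11.6 TPM on day 2 and at 15.5, 12.8 and 14.5 TPM on day 3. The 4 days did not overlap, with day 1 lowest and day 3 highest. *Igf1r* rose by 0.74 (SE 0.08) from day 1 to day 2, with an adjusted p of 2.44e-07 in edgeR's quasi-likelihood test, and by 0.29 (SE 0.08) from day 2 to day 3, with an adjusted p of 0.00814. The difference between days 1 and 0 was -0.19 (SE 0.08, adjusted p 0.0552), and it was called under 6 alternative settings, with adjusted p between 0.0305 and 0.0491. In these bulk libraries fewer cells with a transcript and less of it per cell cannot be told apart.

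The adaptor genes showed the largest fold changes of the 9. *Irs2* encodes the adaptor that was the more abundant of the pair as RNA in every library. It stood at 7.11, 7.26 and 6.96 TPM on day 0 and at 6.85, 6.69 and 7.50 TPM on day 1. It then reached 19.3, 18.6 and 24.9 TPM on day 2 and 36.6, 27.7 and 34.0 TPM on day 3. Days 0 and 1 overlapped, and each later day lay above all earlier libraries. *Irs2* rose by 1.46 (SE 0.11, adjusted p 2.95e-09) from day 1 to day 2 and by 0.61 (SE 0.10, adjusted p 0.000218) from day 2 to day 3 in edgeR's quasi-likelihood test.

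*Irs1* had few counts in the libraries of days 0 and 1. It was at 0.565, 0.911 and 0.214 TPM on day 0 and at 0.290, 0.253 and 0.309 TPM on day 1, which stand for 35, 70, 14, 21, 18 and 20 estimated counts. On day 2 it was at 2.64, 2.13 and 2.59 TPM, and on day 3 at 5.75, 4.06 and 5.57 TPM. The day 0 libraries spread over the whole range of day 1, and no library of day 2 or 3 came near either. *Irs1* rose by 2.99 (SE 0.34, adjusted p 4.19e-06) from day 1 to day 2 and by 1.02 (SE 0.23, adjusted p 0.00536) from day 2 to day 3 in edgeR's quasi-likelihood test. Its difference between days 1 and 0 was -0.95 (SE 0.41, adjusted p 0.0595), which became -1.32 with an adjusted p of 0.000376 when day 0 replicate 3 was left out.

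Because *Irs1* and *Irs2* moved together with the largest changes, the bases around their annotated starts are printed here. Each window runs from 250 bases before to 50 bases after a start in RefSeq, on the strand of the gene and in GRCm38.p6 coordinates, the primary assembly of which is mm10. A FoxO motif, spelled GTAAACA and searched on both strands, would be in capitals, since *Irs2* and *Insr* are textbook FoxO targets. Neither of these windows holds it. The *Irs1* window is at chr1:82291390-82291689 on the minus strand and the *Irs2* window at chr8:11008880-11009179 on the minus strand.
Irs1: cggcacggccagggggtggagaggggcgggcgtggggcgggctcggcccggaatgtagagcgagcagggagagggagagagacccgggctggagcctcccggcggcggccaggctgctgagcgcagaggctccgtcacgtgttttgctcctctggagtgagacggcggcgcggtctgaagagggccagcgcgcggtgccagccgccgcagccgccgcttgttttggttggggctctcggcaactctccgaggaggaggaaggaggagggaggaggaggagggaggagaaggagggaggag
Irs2: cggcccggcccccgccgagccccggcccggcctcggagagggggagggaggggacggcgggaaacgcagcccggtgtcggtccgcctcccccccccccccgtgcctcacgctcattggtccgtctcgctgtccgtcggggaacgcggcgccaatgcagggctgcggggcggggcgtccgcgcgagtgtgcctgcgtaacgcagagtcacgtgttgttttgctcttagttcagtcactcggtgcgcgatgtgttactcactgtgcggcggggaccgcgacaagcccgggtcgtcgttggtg
Both windows are rich in G and C, at 71.3% for *Irs1* and 72.0% for *Irs2*, beside a median of 52.7% over the 32851 promoter windows of the table. They hold 28 and 41 CpG dinucleotides, beside a median of 7. Of the 9 genes, 8 matched the table with 12 windows, and *Insr* had no entry. The FoxO motif was in 1 of the 12 windows and in 1199 of all 32851 windows (3.65%).

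*Pik3ca* was the steadiest gene between these 4 days beside *Gsk3a*. Its level was 9.07, 9.26 and 8.09 TPM on day 0, 8.65, 7.91 and 7.52 TPM on day 1, 8.26, 9.70 and 8.79 TPM on day 2 and 9.14, 9.54 and 9.90 TPM on day 3. Day 3 overlapped with days 0 and 2. From day 0 to day 3 the difference was 0.03 (SE 0.08, adjusted p 0.784) in edgeR's quasi-likelihood test, and in the joint test over the 4 days the adjusted p was 0.732.

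From day 1 to day 2 and over the whole course, *Akt1* rose and *Akt2* fell. *Akt1* encodes the Akt kinase that most cells express, and it was at 34.3, 30.9 and 29.1 TPM on day 0 and at 22.4, 23.1 and 21.03 TPM on day 1. It was at 38.6, 34.9 and 43.0 TPM on day 2 and at 61.9, 56.0 and 53.0 TPM on day 3. No 2 days overlapped, with day 1 lowest and day 3 highest. *Akt1* fell by 0.43 (SE 0.09) from day 0 to day 1, with an adjusted p of 0.000371 in edgeR's quasi-likelihood test. It rose by 0.69 (SE 0.09, adjusted p 1.81e-06) to day 2 and by 0.51 (SE 0.08, adjusted p 0.000185) to day 3.

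*Akt2* encodes the Akt kinase best known for glucose uptake in insulin target tissues. It was at 57.5, 51.3 and 68.0 TPM on day 0, at 51.0, 49.0 and 52.7 TPM on day 1, at 43.4, 41.0 and 41.3 TPM on day 2 and at 41.8, 42.4 and 46.4 TPM on day 3. Libraries of days 2 and 3 lay below those of days 0 and 1, and neighbouring days overlapped except days 1 and 2. It fell by 0.39 (SE 0.08) from day 1 to day 2 (adjusted p 0.000392) and by 0.52 (SE 0.08) from day 0 to day 3 (adjusted p 1.33e-05) in edgeR's quasi-likelihood test.

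*Akt2* has a pair of RefSeq transcripts in the files. In the GENCODE M21 annotation these have 14 exons each, with 12 of them in common, and differ in the first exon and in the end of the last exon. Their exons there sum to 4544 bases for the upstream and 2923 bases for the downstream transcript. The sequences that kallisto used were 3199 and 2957 bases long, so the longer last exon was not fully in them. By which parts kallisto divided the reads was not determined. The transcript that starts downstream, with its first exon at chr7:27605858-27605937, was at 43.7, 40.7 and 53.8 TPM on day 0 and at 31.6, 31.7 and 32.3 TPM on day 3. The transcript that starts upstream, with its first exon at chr7:27591552-27591879, was at 13.8, 10.6 and 14.2 TPM on day 0 and at 10.2, 10.7 and 14.05 TPM on day 3. The first fell by 0.59 (adjusted p 0.00122 over all transcripts in edgeR's quasi-likelihood test, which called 46.6% of them), and for the other the difference was -0.21 (adjusted p 0.548). Whether the 2 transcripts differ in their change was not tested. In the GFP+ libraries the upstream transcript was at 34.3 and 19.1 TPM in wild-type cells, 39.0 and 23.1 TPM in *Nprl2* KO cells and 38.5 and 33.1 TPM in *Tsc2* KO cells, and the downstream transcript was at 15.3 and 28.9 TPM, 8.36 and 25.04 TPM, and 8.85 and 20.4 TPM in the same order. In all 3 genotypes replicate 1 was higher than replicate 2 for the upstream transcript and lower for the downstream transcript. Effective lengths of transcripts lay 179 bases below full length in every time-course library and 170 to 228 bases below it in GFP+ libraries. The time-course and GFP+ libraries were thus not quantified alike, and the part of this in the transcript levels was not tested.

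The printed windows of *Akt1* show where the motif search gave its single match among the 9 genes. They are at chr12:112674835-112675134 and chr12:112674227-112674526, both on the minus strand, and capitals mark the FoxO motif in its reverse-strand spelling TGTTTAC.
Akt1, start upstream: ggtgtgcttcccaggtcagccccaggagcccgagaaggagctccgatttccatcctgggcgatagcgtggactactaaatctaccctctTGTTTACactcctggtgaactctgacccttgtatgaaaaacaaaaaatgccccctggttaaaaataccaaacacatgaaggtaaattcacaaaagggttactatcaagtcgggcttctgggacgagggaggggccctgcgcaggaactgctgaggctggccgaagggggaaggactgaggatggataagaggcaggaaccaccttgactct
Akt1, start downstream: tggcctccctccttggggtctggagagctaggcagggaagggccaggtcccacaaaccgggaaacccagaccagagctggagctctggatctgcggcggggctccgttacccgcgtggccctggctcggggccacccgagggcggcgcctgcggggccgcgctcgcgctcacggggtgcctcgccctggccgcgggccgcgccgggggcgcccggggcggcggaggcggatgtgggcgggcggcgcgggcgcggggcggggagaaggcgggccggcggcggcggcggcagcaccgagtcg
The upstream window has 52.3% G and C with 8 CpG dinucleotides, and the downstream window has 79.7% with 42. A match of 7 letters is a description and says nothing of binding.

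*Gsk3a* and *Gsk3b* encode closely related kinases, and their RNAs differed in both level and course. *Gsk3a* was at 110.2, 102 and 103 TPM on day 0, at 93.1, 92.6 and 101 TPM on day 1, at 104, 93.3 and 93.8 TPM on day 2 and at 104, 107 and 112 TPM on day 3. Days 0 and 3 overlapped, and all their libraries lay above those of day 1 by a narrow gap. *Gsk3a* was called in no comparison between days, with -0.05 (SE 0.06, adjusted p 0.449) from day 0 to day 3 in edgeR's quasi-likelihood test and an adjusted p of 0.124 in the joint test over the 4 days. With limma on log2(TPM + 1), which differs in scaling, pseudocount and test, these were 0.033 and an adjusted p of 0.0348.

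*Gsk3b* was at 18.3, 19.9 and 18.8 TPM on day 0, at 15.6, 14.8 and 14.4 TPM on day 1, at 21.8, 24.6 and 24.9 TPM on day 2 and at 31.6, 28.0 and 30.3 TPM on day 3. The 4 days were apart, with the same order as for *Akt1* and *Igf1r*. It fell by 0.28 (SE 0.07, adjusted p 0.00133) to day 1, rose by 0.56 (SE 0.07, adjusted p 7.8e-07) to day 2 and by 0.29 (SE 0.06, adjusted p 0.00239) to day 3 in edgeR's quasi-likelihood test. *Gsk3b* made up 15.3% ± 1.03 (SD, n = 3) of the summed TPM of both genes on day 0, 13.5% ± 0.939 on day 1, 19.7% ± 2.07 on day 2 and 21.8% ± 1.33 on day 3. That share differed among the days (exact permutation test, two-sided, adjusted p 0.000974 over 5 shares). *Gsk3a* therefore held most of the Gsk3 RNA in every library.

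The windows at the starts of the Gsk3 genes are shown because this pair differed in course. They are at chr7:25237802-25238101 on the minus strand for *Gsk3a* and at chr16:38088751-38089050 on the plus strand for *Gsk3b*, and neither holds the motif.
Gsk3a: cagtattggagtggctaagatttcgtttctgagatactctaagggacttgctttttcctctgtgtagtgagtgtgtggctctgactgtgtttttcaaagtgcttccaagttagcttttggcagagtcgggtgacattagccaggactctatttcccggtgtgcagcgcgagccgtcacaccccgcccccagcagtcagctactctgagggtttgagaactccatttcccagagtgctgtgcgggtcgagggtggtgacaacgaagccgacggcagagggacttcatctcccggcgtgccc
Gsk3b: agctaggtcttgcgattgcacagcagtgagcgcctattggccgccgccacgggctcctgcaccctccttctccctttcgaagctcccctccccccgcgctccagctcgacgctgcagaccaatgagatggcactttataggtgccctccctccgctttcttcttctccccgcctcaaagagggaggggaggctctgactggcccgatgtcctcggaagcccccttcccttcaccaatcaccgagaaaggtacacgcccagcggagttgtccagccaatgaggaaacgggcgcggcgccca
The *Gsk3a* window has 54.3% G and C with 14 CpG dinucleotides, and the *Gsk3b* window 63.0% with 21.

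Over the whole set, 2 of the 9 genes were called lower on day 1 than on day 0 and none higher, where 60.9% of all genes tested were called, 30.1% higher and 30.8% lower. From day 1 to day 2, 6 were called higher and 1 lower, where 62.1% of all genes were called, 32.5% higher and 29.6% lower. From day 2 to day 3, 5 were called higher and none lower, where 31.5% were called, 15.9% higher and 15.6% lower. From day 0 to day 3, 6 were higher and 1 was lower, where 70.9% were called, 35.0% higher and 35.9% lower. The median log2 fold change of the 9 genes was -0.15, 0.69 and 0.29 in the 3 steps and 0.78 over the whole course, where the median of all genes was 0.00, 0.02, -0.01 and -0.01. With limma on log2(TPM + 1) the median of all genes from day 1 to day 2 was 0.11, and 5639 genes were called higher and 3203 lower, where edgeR called 4677 higher and 4254 lower. Of the 9 genes, 6 were higher and 1 lower in this step in either fit. In the joint test over the 4 days 7 of the 9 were called, beside 88.3% of all genes.

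The other shares between related genes also differed among the days in the exact permutation test over the 12 libraries. *Irs2* was 92.8% ± 4.09 (SD, n = 3) of the summed TPM of *Irs1* and *Irs2* on day 0 and 86.5% ± 0.665 on day 3 (adjusted p 0.0063). *Igf1r* was 73.6% ± 4.28 of the summed TPM of both receptors on day 0, 63.5% ± 0.661 on day 2 and 66.8% ± 2.55 on day 3 (exact permutation test, adjusted p 0.00173). *Pik3ca* was 26.1% ± 1.67 of the summed TPM of the p110 genes *Pik3ca*, *Pik3cb* and *Pik3cd* on day 0, 23.0% ± 1.44 on day 1 and 30.9% ± 2.68 on day 3 (exact permutation test, adjusted p 0.00463). The summed TPM of *Irs1* and *Irs2* went from 7.67 on day 0 to 37.9 on day 3, and that of the receptors from 10.2 to 21.3.

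The genes with the course most like each of the 9 were found by Pearson's r of log2 CPM over the 12 time-course libraries, which share the 4 days, among 12271 genes. For *Irs2* this was *Stmn4* (r = 0.996), for *Insr* *Sncb* (0.997), for *Irs1* *Lhfpl4* (0.988) and for *Igf1r* *Ilkap* (0.988). For *Akt1* it was *Slc7a6* (0.990), for *Akt2* *Pip4k2c* (0.985) and for *Gsk3b* *Pik3c2a* (0.990). *Gsk3a* and *Pik3ca*, which were not called, had the weakest best matches, *Snrnp25* at 0.950 and *Eapp* at 0.852. Among the 9 themselves, *Irs2* and *Igf1r* had r = 0.966, *Gsk3b* and *Igf1r* 0.964, *Gsk3b* and *Akt1* 0.958, *Akt2* and *Insr* -0.949, and *Gsk3a* and *Gsk3b* -0.265. With most genes changing between days, high values of r are common and are given as a description.

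Of 75 other genes listed for this pathway by role, 64 were tested in the time course and 51 were called between days 0 and 3, 31 higher and 20 lower, or 79.7% beside 70.9% of all genes. Their median log2 fold change was 0.27. Among the ligands, *Ins1* had no count in any library, *Ins2* had 1 count in all, and *Igf1* had at most 6 in a library. *Igf2* was at 12.3, 4.44 and 4.404 CPM on day 0 and at 22.7, 9.48 and 18.9 CPM on day 3, which overlapped, a difference of 1.29 (SE 0.45, adjusted p 0.0282 in edgeR's quasi-likelihood test). Of the 5 ligand and binding protein genes tested, 4 were higher on day 3 and none lower, led by the binding protein genes *Igfbp5* (4.43, adjusted p 2.54e-08) and *Igfbp3* (2.69, adjusted p 7.02e-14) in edgeR's quasi-likelihood test.

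All 9 other adaptors tested were called, 6 higher and 3 lower. For these and the following lists, the shares of all genes called between days 0 and 3 were 35.0% higher and 35.9% lower. *Irs4*, a further member of the Irs family, went from 0.981, 0.729 and 0.236 CPM on day 0 to 13.1, 14.5 and 13.0 CPM on day 1 and stood at 11.3, 15.4 and 10.98 CPM on day 3. It thus rose a day before *Irs1* and *Irs2*, by 4.36 (SE 0.25, adjusted p 2.91e-11 in edgeR's quasi-likelihood test). *Gab1*, which encodes a docking protein, fell by 1.41 (adjusted p 1.14e-12 in edgeR's quasi-likelihood test) from day 0 to day 3. Its mean was 343 CPM on day 0, higher on day 1 at 555 CPM, and then 254 CPM on day 2 and 129 CPM on day 3.

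Of 6 other PI3K subunit genes 4 were higher and 1 lower on day 3 than on day 0, and of 9 phosphatase genes 6 were higher and 2 lower. *Inpp5d*, which encodes the lipid phosphatase Ship1, was at 249, 271 and 219 CPM on day 0 and at 10.7, 17.7 and 15.5 CPM on day 3, a fall of 4.08 (SE 0.18). Its libraries of days 0 and 3 did not overlap.

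Of 10 kinase genes 4 were higher and 5 lower. The Akt-like kinase genes *Sgk1* and *Sgk3* fell by 4.51 and 2.18, and *Sgk1* went from 390.5, 399.8 and 394 CPM on day 0 to 14.04, 21.1 and 16.7 CPM on day 3. The drop of *Sgk1* came after day 1, where it was still at 379.8, 373 and 389.6 CPM.

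Among 5 Akt cofactor and inhibitor genes 2 were higher and 2 lower. *Tcl1*, which encodes a coactivator of Akt, was at 74.6, 90.8 and 64.0 CPM on day 0, at 1.49, 2.66 and 3.10 CPM on day 1 and at 0.136, 0 and 0 CPM on day 3. *Trib3*, an inhibitor of Akt, was at 39.7, 41.3 and 40.3 CPM on day 0, at 10.5, 10.8 and 10.03 CPM on day 1 and at 29.0, 26.2 and 27.1 CPM on day 3. Of 8 Akt substrate genes 3 were higher and 3 lower, of 11 Gsk3 partner and substrate genes 2 were higher and 4 lower, and of 10 FoxO target genes 5 were higher and 4 lower. *Axin2*, a scaffold of Gsk3 in the beta-catenin destruction complex, fell by 1.42 (SE 0.14, adjusted p 1.05e-07 in edgeR's quasi-likelihood test).

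**Figure D2:**
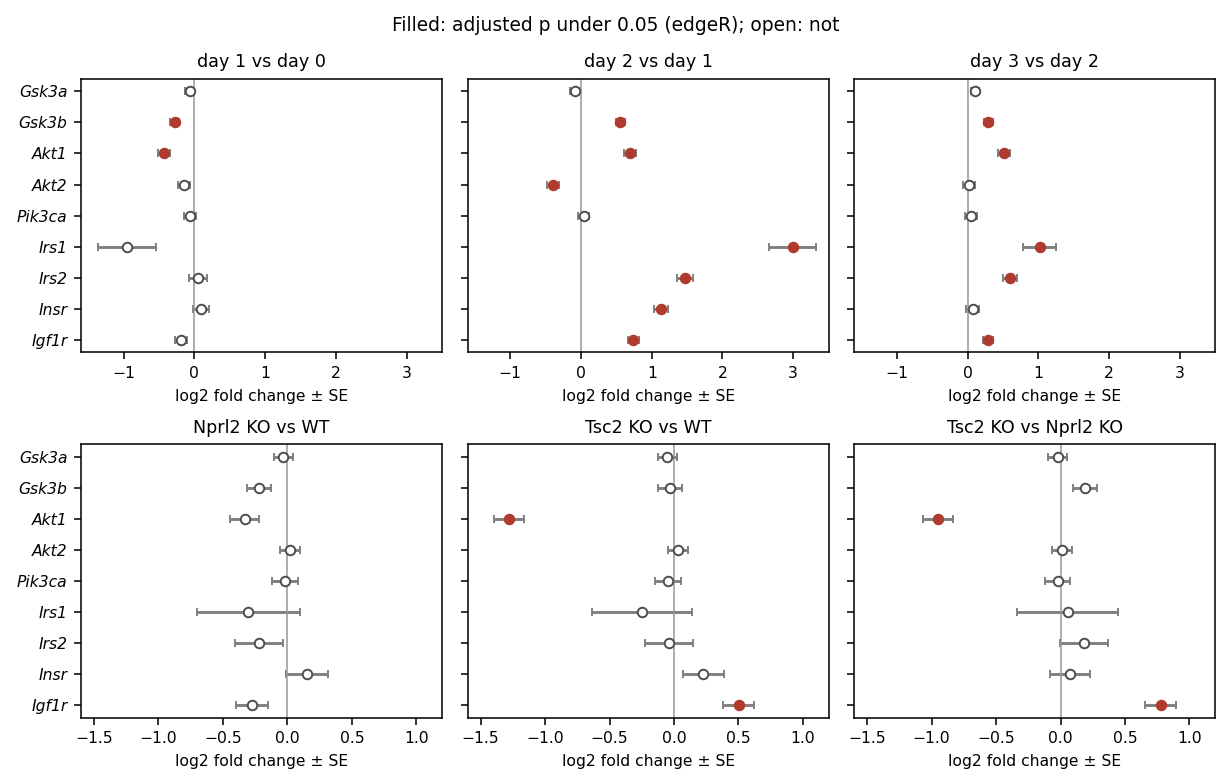
Log2 fold changes of the 9 genes (horizontal axis) in 3 steps of the time course (top) and between the GFP+ genotypes (bottom). Points are estimates, bars ± SE, and filled points have an adjusted p below 0.05 in edgeR. In the top row 6 of the 9 points are filled to the right from day 1 to day 2, and in the bottom row only *Akt1* and *Igf1r* are filled, in both comparisons of *Tsc2* KO cells.

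In GFP+ cells the question was how loss of either mTORC1 regulator changed the transcripts of these genes. None of the 9 genes was called between *Nprl2* KO and wild-type cells by edgeR, which called 6.43% of all genes, 2.78% higher and 3.66% lower. DESeq2 gave an adjusted p for 8 of the 9 and called none of them, where it called 674 of 19367 genes. At an unadjusted p under 0.05 edgeR had 3 of the 9, *Akt1*, *Gsk3b* and *Igf1r*, and 21.8% of all genes. Between *Tsc2* KO and wild-type cells 2 of the 9 were called, *Akt1* lower and *Igf1r* higher, where 29.1% of all genes were called, 14.9% higher and 14.2% lower. Both comparisons use the same wild-type libraries. Between the KO lines, with no library of wild-type cells, *Akt1* was again lower and *Igf1r* higher in *Tsc2* KO cells, where 34.2% of all genes were called, 17.5% higher and 16.6% lower. Taken over the 9 genes, the median difference from wild-type on the log2 scale was -0.22 for *Nprl2* KO cells and -0.04 for *Tsc2* KO cells, beside 0.00 for all genes in both. Between the KO lines it was 0.05 beside -0.01.

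**Figure D3:**
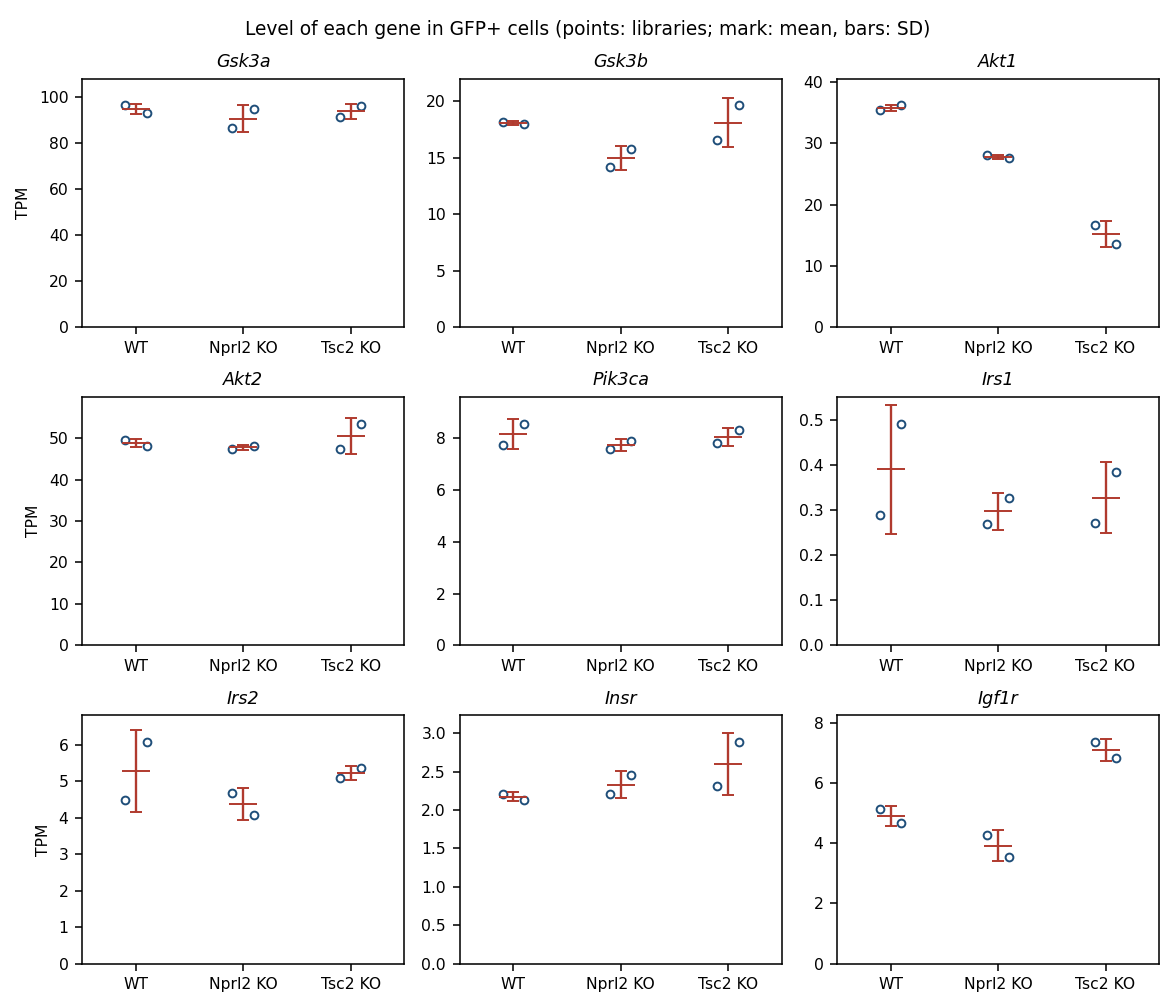
Level of each of the 9 genes (vertical axis, TPM, a separate scale for each gene starting at 0) in the 6 GFP+ libraries, grouped by genotype (horizontal axis). Circles are the 2 libraries of a genotype, horizontal marks are their means and bars are ± SD. *Akt1* is lowest and *Igf1r* highest in both *Tsc2* KO libraries.

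*Igf1r* was at 5.16 and 4.66 TPM in wild-type, at 4.29 and 3.56 TPM in *Nprl2* KO cells and at 7.37 and 6.84 TPM in *Tsc2* KO cells. The 3 genotypes did not overlap, with *Nprl2* KO lowest and *Tsc2* KO highest. In *Tsc2* KO cells *Igf1r* rose by 0.50 (SE 0.12) against wild-type, with an adjusted p of 0.00734 in edgeR's quasi-likelihood test. This call was lost without *Tsc2* KO replicate 1 (0.43, adjusted p 0.0604) and with limma on log2(TPM + 1) (adjusted p 0.0555). In *Nprl2* KO cells the difference was -0.28 (SE 0.12, adjusted p 0.215). The direct comparison of *Tsc2* KO with *Nprl2* KO gave 0.78 (SE 0.12, adjusted p 0.000327).

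*Insr* was at 2.21 and 2.14 TPM in wild-type, 2.21 and 2.45 TPM in *Nprl2* KO cells and 2.31 and 2.89 TPM in *Tsc2* KO cells. *Nprl2* KO overlapped with both other genotypes and *Tsc2* KO lay above wild-type by a narrow gap, and the difference in *Tsc2* KO cells was 0.23 (SE 0.16, adjusted p 0.32 in edgeR's quasi-likelihood test). *Igf1r* made up 69.3% ± 0.960 (SD, n = 2) of the receptor TPM in wild-type, 62.6% ± 4.83 in *Nprl2* KO cells and 73.2% ± 4.10 in *Tsc2* KO cells. With 2 libraries per genotype the exact permutation test cannot go below p = 0.0667, which this share reached.

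Among the adaptors, *Irs2* was at 4.48 and 6.07 TPM in wild-type, 4.69 and 4.06 TPM in *Nprl2* KO cells and 5.09 and 5.36 TPM in *Tsc2* KO cells, with each KO line overlapping with wild-type. *Irs1* was at 0.289 and 0.491 TPM in wild-type, 0.268 and 0.326 TPM in *Nprl2* KO cells and 0.271 and 0.384 TPM in *Tsc2* KO cells. At this low level its log2 fold changes had an SE of 0.40 (*Nprl2* KO) and 0.39 (*Tsc2* KO), so that moderate differences were not detectable at this depth. *Pik3ca* was at 7.75 and 8.57 TPM in wild-type, 7.58 and 7.91 TPM in *Nprl2* KO cells and 7.83 and 8.32 TPM in *Tsc2* KO cells, which overlapped.

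*Akt1* was at 35.5 and 36.2 TPM in wild-type, at 28.1 and 27.5 TPM in *Nprl2* KO cells and at 16.6 and 13.6 TPM in *Tsc2* KO cells. The genotypes were fully apart, with *Tsc2* KO lowest. *Akt1* fell by 1.28 (SE 0.12, adjusted p 1.13e-05) in *Tsc2* KO cells in edgeR's quasi-likelihood test. In *Nprl2* KO cells the difference was -0.33 (SE 0.11, adjusted p 0.104), and the KO lines differed from each other by -0.95 (SE 0.12, adjusted p 7.02e-05). *Akt2* was at 49.5 and 48.0 TPM in wild-type, 47.3 and 48.2 TPM in *Nprl2* KO cells and 47.3 and 53.5 TPM in *Tsc2* KO cells, which overlapped. In *Tsc2* KO cells *Akt1* came after *Gsk3b* in the order of mean levels, with overlapping libraries, whereas it lay above *Gsk3b* in every other group.

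The lower *Akt1* RNA in the KO lines did not stand alone on its chromosome. *Akt1* lies at chr12:112653821-112674884, near the end of the chromosome. The stretch from 15 Mb before it to that end holds 122 other genes tested, and it was marked out after the values were seen, so it is given without a test. In *Nprl2* KO cells 75 of these genes (61.5%) were called lower than in wild-type and none higher, and the median was -0.70 on the log2 scale. For *Tsc2* KO cells, 80 (65.6%) were called lower and 1 higher, with a median of -0.75. The 354 genes on the rest of chromosome 12 had medians of 0.02 and -0.01, and 3.66% and 14.2% of all genes were called lower in *Nprl2* KO and *Tsc2* KO cells.

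Each KO library had lower levels along the end of chromosome 12. The median against the wild-type mean was -0.75 and -0.71 in the *Nprl2* KO libraries and -0.74 and -0.78 in the *Tsc2* KO libraries. Against day 0 of the time course, a set of wild-type libraries that the KO comparisons do not use, the median of 118 of the genes was -0.80 in both KO lines and -0.05 in GFP+ wild-type cells. Between the KO lines the median was -0.06. Of the 20 tested genes nearest to *Akt1*, 12 were lower in *Nprl2* KO and 13 in *Tsc2* KO cells and none was higher in either. *Akt1* itself, at -0.33 in *Nprl2* KO and -1.28 in *Tsc2* KO cells, lay above the median of the stretch in the first and below it in the other. The stretch was not even in *Tsc2* KO cells. There the median was -0.74 over the 47 genes in the 5 Mb before *Akt1* and -1.11 over the 20 genes in the 5 Mb after it. In *Nprl2* KO cells the medians of the same genes were -0.73 and -0.68. The cause of the lower levels along this stretch was not tested, and its part in the lower *Akt1* cannot be told apart from an effect of the KO on *Akt1*.

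**Figure D4:**
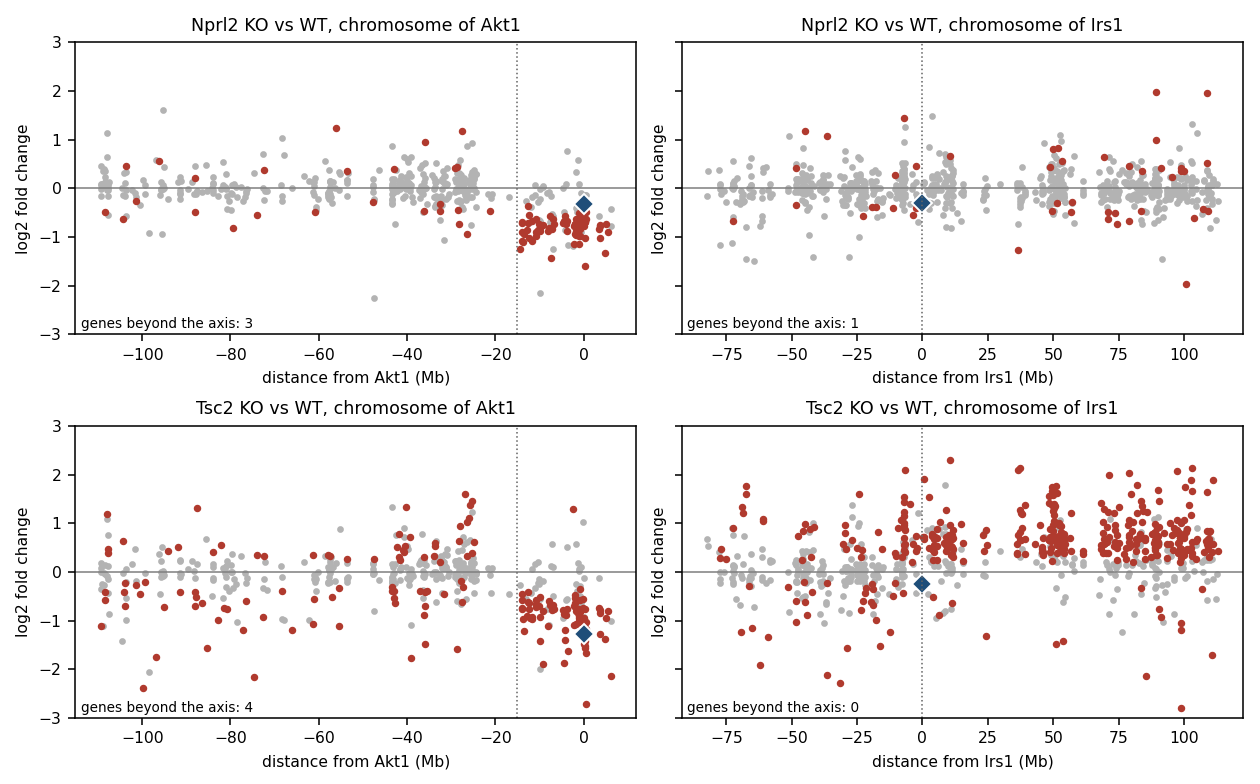
Log2 fold change of each tested gene (vertical axis) by its distance from *Akt1* (left) or from *Irs1* (right) along the chromosome in Mb (horizontal axis), in *Nprl2* KO (top) and *Tsc2* KO (bottom) against wild-type. Dots are genes, red with an adjusted p below 0.05 in edgeR, diamonds are *Akt1* and *Irs1*, the dotted line is the start of the stretch described in the text, and genes outside the axis are counted in the corner. On the left most dots past the line lie below 0 in both KO lines, and on the right most dots past the line lie above 0 in *Tsc2* KO cells alone among the 2 lines drawn.

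On chromosome 1 the neighbours of *Irs1* moved the other way. The stretch from *Irs1* (chr1:82233105-82291439) to the end of the chromosome was also marked out after the values were seen, and the shift begins before it, with a median of 0.39 over the 56 genes tested in the 10 Mb before *Irs1* in *Tsc2* KO cells. The stretch holds 458 other genes tested, of which 283 (61.8%) were called higher in *Tsc2* KO cells and 15 lower, with a median of 0.55, where 14.9% of all genes were called higher and 14.2% lower. The 288 genes on the rest of chromosome 1 had a median of 0.05. In *Nprl2* KO cells 17 were higher and 16 lower, with a median of -0.01, and the direct comparison of the KO lines had a median of 0.50. *Irs1* was at -0.25 (SE 0.39) in *Tsc2* KO cells and was not called. The cause of the shift along this stretch was not tested.

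The other members do not lie in these stretches. Around *Igf1r*, at chr7:67952257-68233668, 1 of the 20 nearest tested genes was higher and 1 lower in *Tsc2* KO cells, with a median of 0.01. Around *Gsk3b*, at chr16:38089001-38246084, 9 of 20 were higher and none lower in *Tsc2* KO cells, with a median of 0.37. Of all genes tested, 14.9% were called higher and 14.2% lower in *Tsc2* KO cells. *Gsk3b* itself was at 18.2 and 17.9 TPM in wild-type, 14.2 and 15.7 TPM in *Nprl2* KO cells and 16.6 and 19.6 TPM in *Tsc2* KO cells. Both *Nprl2* KO libraries lay below the others, with a difference of -0.22 (SE 0.09, adjusted p 0.191 in edgeR's quasi-likelihood test), and the *Tsc2* KO libraries lay on both sides of wild-type. *Gsk3a*, at chr7:25228258-25237851, was at 96.1 and 93.0 TPM in wild-type, 86.2 and 94.6 TPM in *Nprl2* KO cells and 91.1 and 96.0 TPM in *Tsc2* KO cells. These overlapped, and the log2 differences were -0.03 (SE 0.08) and -0.05 (SE 0.07).

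Of the other pathway genes, 66 were tested in GFP+ cells. In *Nprl2* KO cells 9 of them (13.6%, beside 6.43% of all genes) were called, 4 higher and 5 lower, and 8 of 61 without the genes of the chromosome stretches. In *Tsc2* KO cells 23 (34.8%, beside 29.1% of all genes) were called, 15 higher and 8 lower, and 21 of 61 without those genes. Their medians were 0.01 and -0.07. None of the 10 FoxO target genes was called in *Nprl2* KO cells, where 6.43% of all genes were. In *Tsc2* KO cells 4 were higher and 4 lower, where 14.9% and 14.2% of all genes were.

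Among the ligand genes *Igf2* was at 27.7 and 14.2 CPM in wild-type, 24.1 and 24.9 CPM in *Nprl2* KO cells and 55.4 and 60.1 CPM in *Tsc2* KO cells. Both *Tsc2* KO libraries were above all others, with a rise of 1.44 (SE 0.27, adjusted p 0.0119 in edgeR's quasi-likelihood test). The gene of its binding protein *Igfbp2* rose by 0.91 (SE 0.07) in *Tsc2* KO cells, *Igfbp3* fell by 0.67 (SE 0.13), and *Igf2r*, which encodes the receptor that clears Igf2, was at 121 and 116 CPM in wild-type and at 158 and 160 CPM in *Tsc2* KO cells. Markers of feeder fibroblasts summed to between 81.3 and 309 CPM in *Tsc2* KO cells and between 254 and 355 CPM in wild-type cells. The part of feeder RNA in these values was not tested.

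Below the receptors, the PI3K regulatory subunit gene *Pik3r1* fell in both KO lines, by 0.62 (adjusted p 0.0469) in *Nprl2* KO and by 0.72 (adjusted p 0.00644) in *Tsc2* KO cells. The regulatory subunit gene *Pik3r3* rose in both, by 0.75 (adjusted p 0.0128) and 0.76 (adjusted p 0.0029).

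*Trib3* showed the largest rise of the pathway genes in *Nprl2* KO cells, from 9.98 and 10.8 CPM in wild-type to 26.4 and 31.4 CPM, and was at 20.3 and 24.97 CPM in *Tsc2* KO cells. It rose by 1.48 (SE 0.16, adjusted p 0.0002) and 1.13 (SE 0.16, adjusted p 0.000233) in edgeR's quasi-likelihood test. *Tcl1*, which lies in the chromosome 12 stretch, was at 29.5 and 25.4 CPM in wild-type, 11.5 and 9.04 CPM in *Nprl2* KO cells and 32.3 and 27.4 CPM in *Tsc2* KO cells. It fell by 1.43 (SE 0.16, adjusted p 0.000285) in *Nprl2* KO cells only among the KO lines, and the lines differed by 1.54 (SE 0.15, adjusted p 1.45e-05). *Foxo1*, a FoxO factor that Akt inhibits, was at 60.6 and 60.5 CPM in wild-type, 50.1 and 46.0 CPM in *Nprl2* KO cells and 38.0 and 39.3 CPM in *Tsc2* KO cells, without overlap. It fell by 0.65 (SE 0.09, adjusted p 0.000283) in *Tsc2* KO cells and, at the edge of the threshold, by 0.33 (adjusted p 0.05) in *Nprl2* KO cells.

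**Figure D5:**
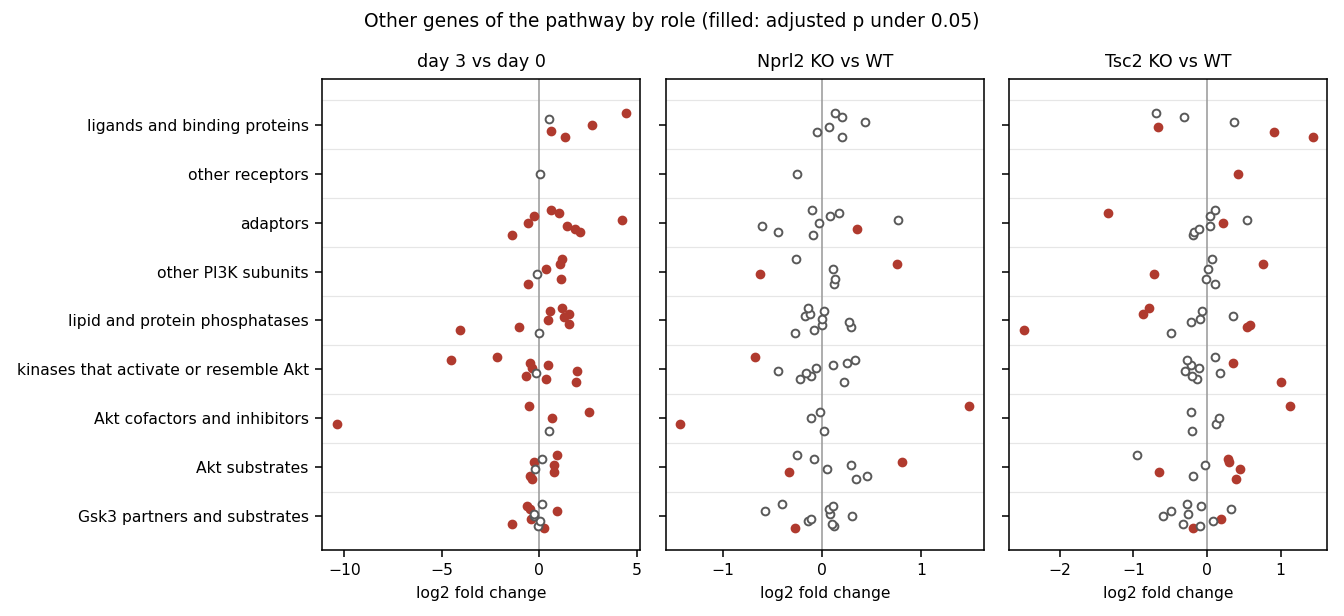
Log2 fold changes (horizontal axis, a separate scale in each panel) of the other tested genes of the pathway, 1 dot per gene, by role (rows), from day 0 to day 3 and in each KO line against wild-type. Filled dots have an adjusted p below 0.05 in edgeR. The farthest dot to the left from day 0 to day 3 is *Tcl1*, whose fitted value depends on its near-zero counts on day 3, and most dots in the *Nprl2* KO panel are open.

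Marker levels moved with these genotypes too. The 6 mESC markers summed to 2932 CPM in both wild-type libraries, to between 2415 and 2629 CPM in *Nprl2* KO and to between 3823 and 4023 CPM in *Tsc2* KO cells. The 4 formative markers summed to between 817 and 944 CPM in wild-type, 1137 and 1328 CPM in *Nprl2* KO cells and 211 and 219 CPM in *Tsc2* KO cells. *Tsc2* KO cells thus lay nearer to day 0 of the time course in both sums than the other genotypes. Day 0 cells were not sorted, unlike these, and GFP+ wild-type cells lay outside the day 0 range in both sums. The part of the marker differences between genotypes in the levels of the 9 genes was not tested.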

How the data were processed

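RNA was measured in 18 libraries. The submitters' processing notes list kallisto 0.42.1, DESeq2 and the build mm10, and the methods name kallisto for the counts. The authors deposited estimated counts per RefSeq transcript and TPM, both without scaling between libraries, and log2 fold changes and p-values of their own comparisons with DESeq2, which were not used. The methods name a stranded mRNA kit for the GFP+ libraries. The gene of a transcript came from the RefSeq table of GRCm38.p6 (33709 of 34079) or from GENCODE M21 (196), which left 174 unused. Estimated counts were summed for 24296 genes, rounded and tested with edgeR 4.0.16 in R 4.3.3 (TMM, filterByExpr, robust quasi-likelihood fits, Benjamini-Hochberg), with 1 fit for 12 time-course and 1 for 6 GFP+ libraries. Shares of TPM were tested by exact permutation of libraries. Alternatives were DESeq2 1.42.0, upper-quartile scaling, no filter, a minimum of 10 counts in each library, a replicate block, only the groups compared, counts rebuilt from TPM, limma 3.58.1 on log2(TPM + 1) or log2(TPM + 0.1), and leaving out each library. A library dropped from a GFP+ pair leaves 1, which is assumed to vary like the others. Leaving the genes of the chromosome stretches out of the pathway counts was added after the values were seen. Some results of the lists are not reported here. The fits and the permutation test were tested on simulated data. The 9 genes and the lists were chosen with earlier results of these data known. Besides the 9, the text names the targeted genes, ligands, the best match of each gene, and up to 6 called pathway genes with the largest fold change in each direction and a mean log2 CPM of at least 1.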

Additional observations from a re-analysis of the deposited data

Results flagged for a closer look

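*Tsc2* KO and *Nprl2* KO cells differed in the direct comparison for 2 of the 9 genes and for 11 of the other pathway genes described here. The test was edgeR's quasi-likelihood test (p adjusted over all genes by Benjamini-Hochberg). It called 34.2% of all genes in this comparison, and 27 (40.9%) of the 66 other pathway genes tested. As the log2 of *Tsc2* KO over *Nprl2* KO, *Akt1* differed by -0.95 (-1.28 and -0.33 against wild-type, adjusted p 7.02e-05) and *Igf1r* by 0.78 (0.50 and -0.28 against wild-type, adjusted p 0.000327). *Igf1r* thus lay on either side of wild-type in the KO lines, though the fall in *Nprl2* KO cells was not called.

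Also higher in *Tsc2* KO cells were *Tcl1* at 1.54, *Igf2* at 1.24, *Igfbp2* at 0.96, the Akt-like kinase gene *Sgk3* at 0.79 and the phosphatase gene *Inpp5k* at 0.59. Also lower were the adaptor gene *Sh2b2* at -1.51, *Igfbp3* at -0.74, the phosphatase gene *Ptprf* at -0.64, *Mdm2*, whose product is an Akt substrate, at -0.50, the adaptor gene *Grb10* at -0.46 and *Foxo1* at -0.31. *Akt1* and *Tcl1* lie in the stretch of chromosome 12 where most genes were lower in both KO lines. *Sgk3* was lower than wild-type in *Nprl2* KO cells (-0.68) and at 0.11 in *Tsc2* KO cells, and *Mdm2* was higher than wild-type in both (0.81 and 0.30).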

How the results depend on the processing

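Of 63 differences of the 9 genes between groups, 25 were called. Under the alternatives other than leaving out a library these gave 225 values, of which 223 kept direction and call, and the 2 that lost the call were *Igf1r* in *Tsc2* KO cells with limma. Leaving out a library kept 141 of 142 values, again with *Igf1r* as the exception, without *Tsc2* KO replicate 1. Among the 38 differences not called, 9 of 342 values became called under those alternatives and 5 of 182 without a library, and 13 and 23 changed sign. The cause of these changes was not tested.

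The number of genes called in *Nprl2* KO cells was 883, 1667 with no filter on low counts and 339 to 548 without a library, with the lowest value without *Nprl2* KO replicate 2. It was 3996 in *Tsc2* KO cells and 2225 to 3057 without a library, lowest without *Tsc2* KO replicate 2. Between the KO lines it was 4692 and 2974 to 3616 without a library, and limma on log2(TPM + 1) called 2669 higher and 1656 lower where edgeR called 2408 and 2284. From day 2 to day 3 it was 4525 and 2969 to 5055 without a library, lowest without day 2 replicate 2. Of the 9 genes, 2 to 4 were called from day 0 to day 1 without a library, the most without day 0 replicate 2, and in *Tsc2* KO cells 1 to 2, or 1 with either pseudocount in limma (1 and 0.1). The main fits did not pair libraries by replicate number. The deviations of same-numbered GFP+ libraries correlated at 0.16 (*Nprl2* KO and wild-type), 0.13 (*Tsc2* KO and wild-type) and 0.085 (the KO lines). In the time course such values lay between -0.11 and 0.13. Whether the replicate numbers pair the samples cannot be told from these values. With the replicate block 2072 genes were called in *Nprl2* KO cells and 5255 in *Tsc2* KO cells. In *Nprl2* KO cells these held 1 of the 9, *Akt1* (adjusted p 0.0278 in edgeR's quasi-likelihood test). *Gsk3b* differed between the KO lines under the block in edgeR's quasi-likelihood test (adjusted p 0.0464, and 0.133 without it).

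With limma on log2(TPM + 1) and log2(TPM + 0.1) the sign of small differences changed, to -0.018 and -0.020 for *Irs2* on day 1 against day 0, 0.022 for *Gsk3a* on day 2 against day 1, 0.033 and 0.034 for *Gsk3a* on day 3 against day 0, -0.030 for *Akt2* in *Nprl2* KO cells, 0.049 and 0.050 for *Gsk3a* and 0.053 and 0.059 for *Pik3ca* between the KO lines, and with the second to 0.00048 for *Irs2* in *Tsc2* KO cells. Leaving out a library changed the sign of other differences that were not called. The range was -0.0030 to 0.23 for *Insr* in day 1 against day 0. It was -0.034 to 0.10 for *Pik3ca* in day 2 against day 1. It was -0.028 to 0.058 for *Pik3ca* in day 3 against day 0. It was -0.0092 to 0.057 for *Akt2* in day 3 against day 2. The range was -0.0045 to 0.039 for *Akt2*, -0.10 to 0.026 for *Gsk3a*, -0.69 to 0.11 for *Irs1*, -0.46 to 0.018 for *Irs2*, -0.12 to 0.063 for *Pik3ca* in *Nprl2* KO against wild-type. The range was -0.028 to 0.093 for *Akt2*, -0.14 to 0.073 for *Gsk3b*, -0.63 to 0.17 for *Irs1*, -0.27 to 0.20 for *Irs2*, -0.14 to 0.042 for *Pik3ca* in *Tsc2* KO against wild-type. It was -0.045 to 0.072 for *Akt2*, -0.089 to 0.052 for *Gsk3a*, -0.071 to 0.21 for *Insr*, -0.20 to 0.26 for *Irs1*, -0.043 to 0.0065 for *Pik3ca* in *Tsc2* KO against *Nprl2* KO. The difference of the *Gsk3b* share between *Tsc2* KO and wild-type cells was 0.129 percentage points and -0.668 to 0.926 without a library. Estimated counts of 14 to 70 limit *Irs1* before day 2 and in GFP+ cells, and 2 libraries per genotype limit the shares.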
